A study of Mus musculus with 9 samples.

Results

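The transcription factors of the AP-1 and early growth response (EGR) families were described in neutrophils sorted from mouse skin carrying papillomas or squamous cell carcinomas. The members were Fos, Fosb, Fosl1, Fosl2, Jun, Junb, Jund, Atf3, Egr1 and Egr2, and every probe that is not a control and is named for one of them in the scanner output was taken. This gave 11 probes for 10 genes among the 55681 probes on the array, 1 probe for each gene except Fosl2, which had 2. All 11 probes were well above background on all 9 arrays, and none was left out by the minimum mean level.

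AP-1 is a dimer built from basic leucine zipper proteins of the FOS, JUN and ATF families, and it binds the element through which phorbol esters act on many promoters. JUN proteins pair with themselves or with FOS proteins, whereas FOS proteins need a partner. EGR1 and EGR2 are zinc-finger proteins that bind GC-rich promoters, and several members of both families are immediate early genes, whose transcripts rise within minutes of a stimulus and decay quickly. In the skin carcinogenesis model used here, PMA is itself a phorbol ester.

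All mice were wild-type FVB/N mice given the carcinogen DMBA when 6 and then 13 weeks old, with PMA applied to the skin every week from week 1 to week 18 to 20. Gr-1bright neutrophils were sorted from 4 sources, namely skin around papillomas (papilloma skin, 2 arrays), skin around carcinomas (tumor skin, 2 arrays), papillomas (3 arrays) and carcinomas (tumor, 2 arrays). Each array held RNA from pooled mice, and no group without DMBA and PMA was analysed here. The lesions were digested with collagenase IV, dispase II and DNase I and the skin with collagenase IV alone, so that lesion and digestion cannot be told apart in a comparison of lesions with skin. Since these were bulk samples, fewer cells of a kind and less RNA per cell cannot be told apart either.

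Levels are log2 values of the table that the authors deposited, and scanner output of the same arrays was used beside it. On 3 arrays, the first array of papilloma skin, of tumor skin and of tumor, the slope of the spike-in series in the scanner output was 0.678 to 0.894, compared with 1.04 to 1.06 on the other 6 arrays, and 90.7% to 95.0% of probes were well above background, compared with 44.2% to 64.2%. The table's columns for papilloma skin 1 and tumor 1 ranked their probes less like their own scanner output (Spearman rho across probes 0.588 and 0.827) than like that of tumor 2 (0.924 and 0.947), and for papilloma 2 and papilloma 3 the scanner output of the other array came closest. Values without the papilloma skin 1 and tumor 1 columns, and from the scanner output with quantile normalization and ComBat, are therefore given beside the calls and the larger differences. Without those columns papilloma skin and tumor keep 1 array each. The spread in that fit (3 residual degrees of freedom) comes from tumor skin and papilloma only, so it is not a replicated check.

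In both lesions, Egr1, Egr2 and Jun were higher than in the surrounding skin by more than the spread between arrays. Fosb and Jund were lower in tumor than in tumor skin. A probe was called when limma gave a p of 0.05 or less after Benjamini-Hochberg adjustment over all 55681 probes, the log2 fold change was 1 or more in size, and the mean level was 6 or more. Of the 11 probes, 3 were called in papilloma versus papilloma skin, all higher, where 3.18% of all probes were called (2.18% higher). In tumor versus tumor skin 5 were called, 3 higher and 2 lower, where 4.21% of all probes were called (2.71% higher and 1.51% lower). Without the papilloma skin 1 and tumor 1 columns, these counts were 3 and 4. With slide as a term in the model, only Egr1 was called in each of these comparisons. In the scanner output with quantile normalization and ComBat, Egr1, Egr2, Jun and Atf3 were called in papilloma. None of the 11 probes was called there in tumor versus tumor skin.

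**Figure D1:**
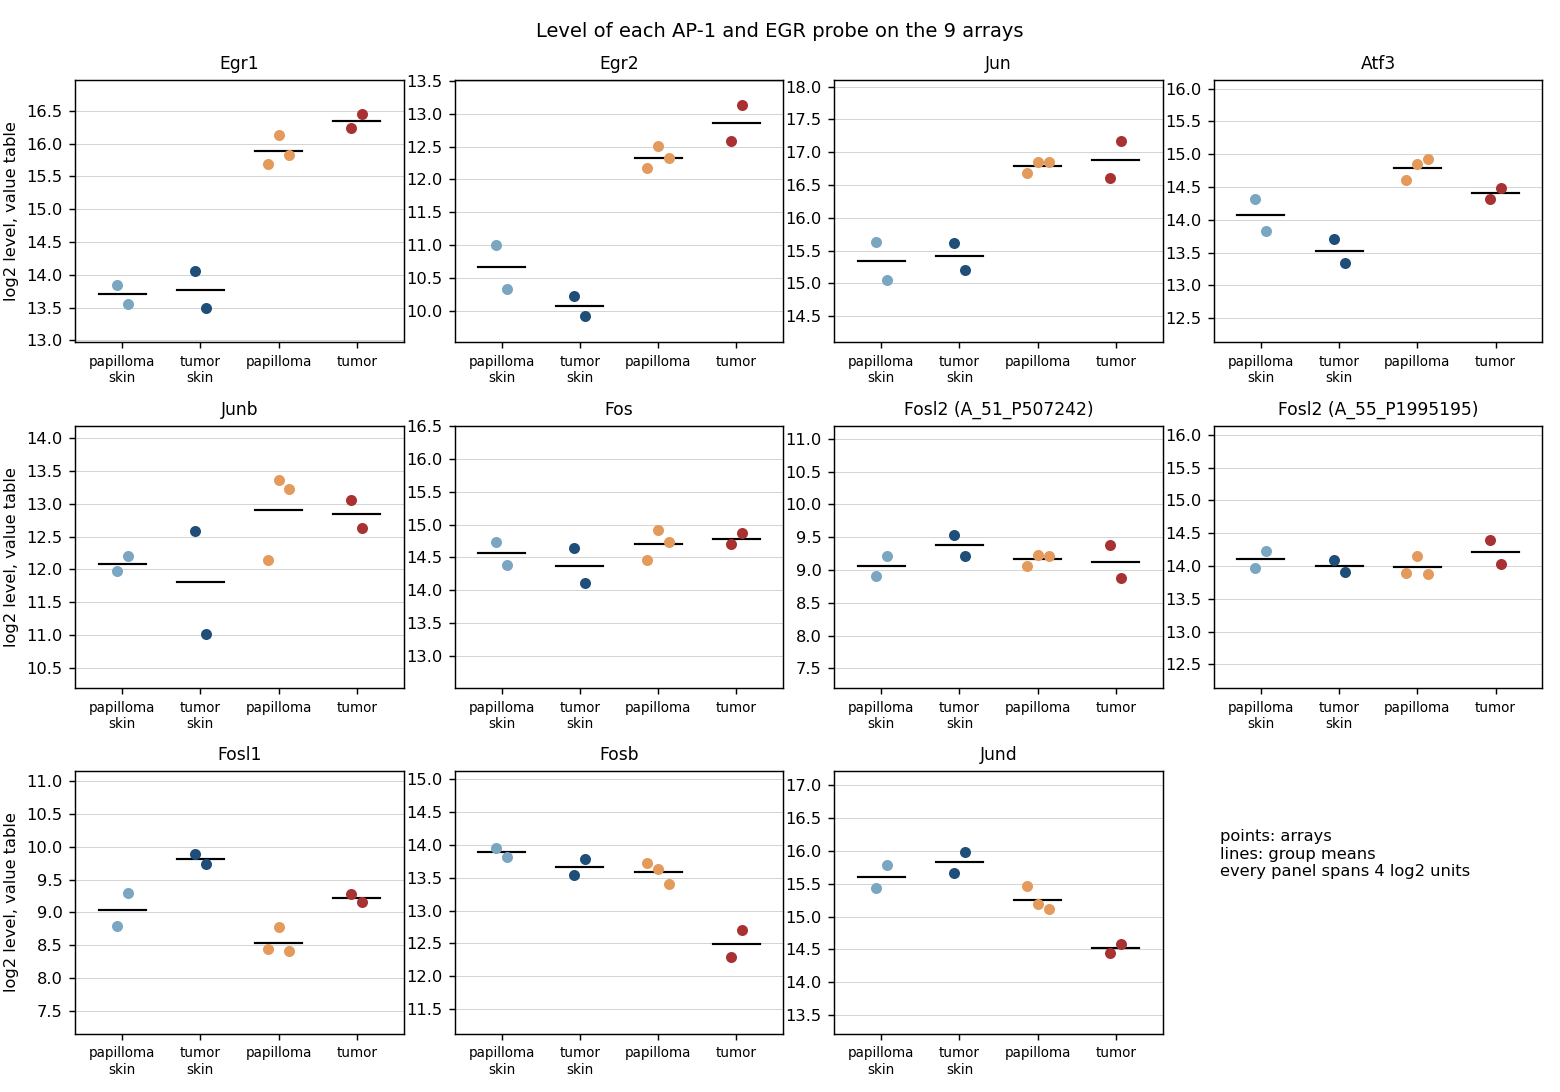
Log2 level of each AP-1 and EGR probe (vertical axis, 4 log2 units in every panel) in papilloma skin, tumor skin, papilloma and tumor (horizontal axis). Points are arrays and lines are group means. The Egr1, Egr2 and Jun points of the 5 lesion arrays lie above those of the 4 skin arrays, and the tumor points of Fosb and Jund lie below all others.

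Promoter sequence is shown for Jun and Egr2, whose transcripts were called in both lesions, and for Fos and Atf3, whose transcripts were not. The RefSeq promoter table (GRCm38.p6, a later build than that of the array's probe coordinates) held 8 of the 10 genes. The 250 bases before the transcription start were searched on both strands for the CArG box bound by SRF, the cAMP response element TGACGTCA, the AP-1 element TGANTCA, the EGR element GCGNGGGCG and TATAAA, and the variants TGACATCA and TTACGTCA were added after the sequences were seen. Capitals mark the matches, and each sequence runs 5′ to 3′ towards the start on the strand of the gene.
Jun, chr4:95052223-95052472, minus strand: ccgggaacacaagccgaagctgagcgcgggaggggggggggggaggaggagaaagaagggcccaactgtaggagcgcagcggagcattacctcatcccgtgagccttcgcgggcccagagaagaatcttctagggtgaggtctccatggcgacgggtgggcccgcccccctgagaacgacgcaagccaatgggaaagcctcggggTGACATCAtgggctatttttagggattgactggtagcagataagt
Fos, chr12:85473640-85473889, plus strand: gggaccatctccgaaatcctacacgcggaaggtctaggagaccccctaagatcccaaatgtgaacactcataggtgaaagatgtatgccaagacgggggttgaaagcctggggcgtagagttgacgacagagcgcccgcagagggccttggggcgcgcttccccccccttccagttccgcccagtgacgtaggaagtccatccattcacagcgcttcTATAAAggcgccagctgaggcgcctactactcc
Atf3, chr1:191183334-191183583, minus strand: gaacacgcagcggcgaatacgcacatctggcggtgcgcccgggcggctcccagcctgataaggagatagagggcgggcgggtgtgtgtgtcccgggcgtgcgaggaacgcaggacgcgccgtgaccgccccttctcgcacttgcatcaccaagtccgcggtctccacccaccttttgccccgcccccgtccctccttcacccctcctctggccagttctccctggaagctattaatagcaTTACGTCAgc
Egr2, chr10:67537787-67537816, plus strand: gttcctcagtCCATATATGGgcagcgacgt
Egr2, chr10:67537484-67537513, plus strand: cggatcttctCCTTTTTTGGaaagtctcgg

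In Jun, TGACATCA lay 45 to 38 bases before the start, a match that 2.93% of the 32851 promoters in the table held. In Atf3, TTACGTCA lay 10 to 3 bases before the start, and 0.447% of promoters held it. Both variants were added after these sequences were seen, so their shares do not measure enrichment. The table listed 5 starts for Egr2, and a CArG box lay before 4 of them, compared with 1.47% of all promoters. Overlapping windows of these starts held the same CCATATATGG, so that 4 of 5 is not a count of separate sites. The Fos window held TATAAA 33 to 28 bases before the start (12.4% of all promoters), Fosb and Fosl2 each held GCGNGGGCG (4.7%), and Junb and Jund held no match. The added variants match Jun and Atf3, whereas tgacgtag in the Fos window was not among the strings searched. Sequence further than 250 bases before a start was not searched either. A window without a match therefore does not show that a gene lacks these elements. The search used letters only, and binding was not measured.

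Egr1 showed a higher level in every lesion array than in any skin array. Its level (probe at chr18:35024395-35024454, mm9) was 13.84 and 13.56 in papilloma skin, 14.06 and 13.49 in tumor skin, 15.70, 16.14 and 15.82 in papilloma, and 16.23 and 16.45 in tumor. The lesion arrays thus lay apart from the skin arrays, tumor lay above papilloma, and the 2 kinds of skin overlapped. The log2 fold change was 2.18 ± 0.21 (SE) in papilloma versus papilloma skin (4.54-fold, adjusted p = 0.00122) and 2.57 ± 0.23 in tumor versus tumor skin (5.93-fold, adjusted p = 0.00143). With slide as a term these were 2.29 (adjusted p = 0.0143) and 2.39 (adjusted p = 0.0421), and without the papilloma skin 1 and tumor 1 columns they were 2.32 (adjusted p = 0.0295) and 2.68 (adjusted p = 0.0228). Within slides, papilloma exceeded papilloma skin by 1.85 on slide 1 and 2.57 on slide 2. Tumor exceeded tumor skin by 2.18 on slide 1, the only slide that held both. Slide 1 carried all 3 arrays with a low spike-in slope (papilloma skin 1, tumor skin 1 and tumor 1). Its within-slide differences, here and below, rest on them. The scanner output after quantile normalization and ComBat gave 2.21 (adjusted p = 0.00949) and 2.25 (adjusted p = 0.0518), so the direction was the same and the tumor difference just missed the threshold.

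Egr2 was likewise higher in every lesion array than in any skin array. Its level (chr10:67004798-67004857, mm9) was 11.01 and 10.32 in papilloma skin, 10.22 and 9.91 in tumor skin, 12.17, 12.51 and 12.32 in papilloma, and 12.59 and 13.13 in tumor. In the value table the groups followed the order tumor skin, papilloma skin, papilloma, tumor without overlap. Neither the 2 kinds of skin nor the 2 kinds of lesion were called different. Of all probes, 24.7% were lower in tumor skin than in papilloma skin without overlap, and 18% were higher in tumor than in papilloma. In the scanner output papilloma skin lay below tumor skin, and papilloma overlapped tumor. Egr2 was 3.18-fold higher in papilloma than in papilloma skin (log2 fold change 1.67 ± 0.25, adjusted p = 0.00717) and 6.94-fold higher in tumor than in tumor skin (2.80 ± 0.27, adjusted p = 0.00173). With slide as a term neither difference was called (1.72, adjusted p = 0.0551, and 2.71, adjusted p = 0.0539). Without the papilloma skin 1 and tumor 1 columns both were (2.01, adjusted p = 0.0233, and 3.06, adjusted p = 0.0151). Within slides the differences were 1.16 and 2.18 for papilloma and 2.38 for tumor. In the scanner output papilloma skin 1 stood at 8.75 rather than 11.01, and the differences were 3.08 (adjusted p = 0.00675) and 2.21 (adjusted p = 0.0811).

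Among the JUN family transcripts, Jun rose in both lesions and Jund fell in tumor. Jun, the partner of FOS in the classical AP-1 dimer, had levels (chr4:94716928-94716987, mm9) of 15.63 and 15.04 in papilloma skin, 15.62 and 15.21 in tumor skin, 16.69, 16.84 and 16.86 in papilloma, and 16.60 and 17.16 in tumor. All lesion arrays were above all skin arrays, the 2 kinds of skin overlapped, and so did the 2 kinds of lesion. The fold was 2.75 in papilloma (log2 fold change 1.46 ± 0.24, adjusted p = 0.0105) and 2.77 in tumor (1.47 ± 0.26, adjusted p = 0.0137). Jun lost its call in papilloma without papilloma skin 2 (1.17, adjusted p = 0.0737), and in tumor without tumor skin 2 (1.26, adjusted p = 0.0599) or tumor 2 (1.19, adjusted p = 0.0981). It was not called with slide as a term (1.50, adjusted p = 0.0711, and 1.41, adjusted p = 0.135), and within slides the differences were 1.06 and 1.80 for papilloma and 0.98 for tumor. In the scanner output the values were 1.52 (adjusted p = 0.0341) and 0.99 (adjusted p = 0.29).

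Jund, which encodes a JUN protein that in many cells is present without stimulation, was lowest in tumor. Its level (chr8:73224436-73224495, mm9) was 15.44 and 15.78 in papilloma skin, 15.67 and 15.98 in tumor skin, 15.46, 15.20 and 15.12 in papilloma, and 14.45 and 14.58 in tumor. Both tumor arrays were below the other 7, whereas papilloma 1 fell within the range of papilloma skin. Jund was 2.48-fold lower in tumor than in tumor skin (log2 fold change -1.31 ± 0.19, adjusted p = 0.00729), and the papilloma difference was -0.36 ± 0.18 (adjusted p = 0.305). The tumor difference was -1.35 with slide as a term (adjusted p = 0.0909), -1.23 within slide 1, -1.25 without the papilloma skin 1 and tumor 1 columns (adjusted p = 0.0495) and -1.12 in the scanner output (adjusted p = 0.194). Whether the stages differed in this lesion effect was tested directly, and the difference of -0.96 ± 0.26 had an adjusted p of 0.194.

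Junb, which encodes a JUN protein that is induced quickly and can restrain Jun, was not called in either lesion. Its level was 11.98 and 12.20 in papilloma skin, 12.59 and 11.02 in tumor skin, 12.14, 13.37 and 13.22 in papilloma, and 13.05 and 12.64 in tumor. The 2 tumor skin arrays differed by more than the groups did. The log2 fold changes of 0.82 ± 0.49 in papilloma and 1.04 ± 0.53 in tumor had adjusted p values of 0.394 and 0.256, the first also being below the fold minimum. They were 0.71 and 0.83 without the papilloma skin 1 and tumor 1 columns (adjusted p = 0.68 and 0.537) and 1.33 and 1.04 in the scanner output (adjusted p = 0.161 and 0.507).

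Of the FOS family transcripts, Fosb was called, and it was lower. Fosb, an inducible FOS protein, had levels (chr7:19888168-19888227, mm9) of 13.96 and 13.82 in papilloma skin, 13.54 and 13.79 in tumor skin, 13.73, 13.63 and 13.40 in papilloma, and 12.29 and 12.71 in tumor. The 2 tumor arrays were below the other 7, which spanned 13.40 to 13.96. Fosb was 2.25-fold lower in tumor than in tumor skin (log2 fold change -1.17 ± 0.19, adjusted p = 0.011), whereas the papilloma difference was -0.30 ± 0.18 (adjusted p = 0.394). The tumor call was lost without tumor skin 2 (-1.04, adjusted p = 0.0534) or tumor 1 (-0.96, adjusted p = 0.0583), without the papilloma skin 1 and tumor 1 columns (-0.96, adjusted p = 0.0694) and with slide as a term (-1.23, adjusted p = 0.105). In the scanner output tumor 1 stood at 13.38 rather than 12.29, and the difference was -0.59 (adjusted p = 0.44).

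Fos itself, the prototype immediate early gene, was not called in either lesion. Its level was 14.74 and 14.38 in papilloma skin, 14.65 and 14.10 in tumor skin, 14.47, 14.92 and 14.73 in papilloma, and 14.71 and 14.87 in tumor. Papilloma overlapped papilloma skin, and the tumor arrays lay just above those of tumor skin, as for 25.7% of all probes. The differences were 0.14 ± 0.21 (adjusted p = 0.765) and 0.41 ± 0.24 (adjusted p = 0.305), both smaller than 1 log2 unit.

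Fosl1, which encodes FRA-1, ran the other way between skin and lesion within each stage, below the fold set for a call. Its level was 8.79 and 9.29 in papilloma skin, 9.89 and 9.74 in tumor skin, 8.44, 8.78 and 8.41 in papilloma, and 9.28 and 9.16 in tumor. Each lesion was below its own skin without overlap, as were 17.8% of all probes in papilloma and 26.4% in tumor. In papilloma the margin was narrow (8.78 in papilloma 2 against 8.79 in papilloma skin 1). In the scanner output papilloma skin 1 stood at 7.63, below every papilloma array. Both groups of the tumor stage were above or within the range of papilloma skin. The log2 fold changes were -0.50 ± 0.19 (adjusted p = 0.178) and -0.59 ± 0.21 (adjusted p = 0.11), and in the scanner output the papilloma value was 0.32 with the sign turned. The 2 probes of Fosl2, which encodes FRA-2, ranged over the 9 arrays from 13.88 to 14.40 and from 8.87 to 9.53, and in both lesion comparisons their differences lay between -0.25 and 0.21 with adjusted p values of 0.499 to 0.811.

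Atf3, a stress-induced partner of JUN proteins, was higher in both lesions by less than 1 log2 unit. Its level was 14.32 and 13.83 in papilloma skin, 13.70 and 13.34 in tumor skin, 14.60, 14.85 and 14.93 in papilloma, and 14.32 and 14.49 in tumor. Each lesion lay above its own skin, as did 19.8% of all probes in papilloma and 25.7% in tumor. The log2 fold changes were 0.72 ± 0.20 in papilloma (adjusted p = 0.0753) and 0.89 ± 0.22 in tumor (adjusted p = 0.0405), so that Atf3 passed the adjusted p in tumor without reaching the fold, as 9.74% of all probes passed the adjusted p. The pass in tumor was lost with slide as a term (adjusted p = 0.209), without the papilloma skin 1 and tumor 1 columns (0.97, adjusted p = 0.0803), and on leaving out any array of tumor skin, papilloma or tumor (adjusted p = 0.0559 without papilloma 1 to 0.205 without tumor 2). Without those columns the papilloma difference was 0.96 (adjusted p = 0.0988). In the scanner output papilloma skin 1 stood at 13.16 rather than 14.32, and the papilloma difference of 1.41 was called (adjusted p = 0.0184), while that in tumor was 0.63 (adjusted p = 0.347).

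**Figure D2:**
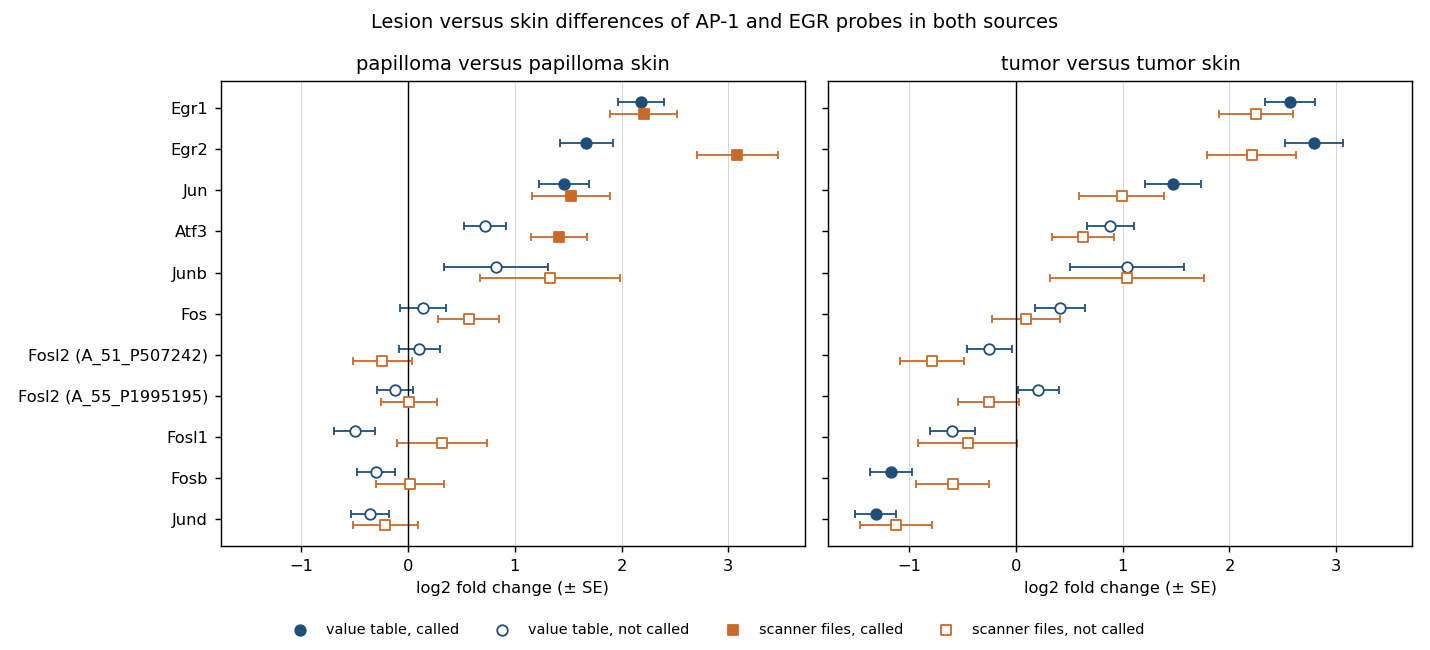
Log2 fold change (horizontal axis, bars ± SE) of each AP-1 and EGR probe (vertical axis) in papilloma versus papilloma skin (left) and tumor versus tumor skin (right). Circles are from the deposited value table and squares from the scanner output after quantile normalization and ComBat, and filled symbols were called. Egr1, Egr2, Jun, Atf3, Junb and Fos lie above 0 in both panels and both sources, and Jund and Fosb lie at or below 0 except for Fosb in papilloma from the scanner output (0.02).

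When both lesions were set against both kinds of skin, Egr1 (log2 fold change 2.38 ± 0.16, adjusted p = 0.000106), Egr2 (2.23 ± 0.18, adjusted p = 0.000267) and Jun (1.46 ± 0.18, adjusted p = 0.00147) were called higher. These 3 of 11 probes compare with 3.62% of all probes, and they were also the probes called with slide as a term (adjusted p = 0.00266, 0.00613 and 0.0167). Without the papilloma skin 1 and tumor 1 columns their differences were 2.50, 2.54 and 1.75 (adjusted p = 0.00528, 0.00339 and 0.00576), and in the scanner output 2.23, 2.65 and 1.26 (adjusted p = 0.00433, 0.00443 and 0.0368). A further 4 probes passed the adjusted p with a fold below the limit, where 14.8% of all probes passed the adjusted p, namely Atf3 (0.80, adjusted p = 0.00902), Jund (-0.83, adjusted p = 0.00462), Fosb (-0.73, adjusted p = 0.00846) and Fosl1 (-0.55, adjusted p = 0.035). Not all of these passes held. In the scanner output Atf3 was called (1.02, adjusted p = 0.027), while Jund was at -0.67 (adjusted p = 0.125), Fosb at -0.29 (adjusted p = 0.491) and Fosl1 at -0.068 (adjusted p = 0.917). With slide as a term the adjusted p was 0.0501 for Atf3 and 0.0629 for Fosl1, and without the papilloma skin 1 and tumor 1 columns it was 0.0591 for Fosb (-0.59). Fosl1 kept its pass on leaving out papilloma skin 1 or papilloma 2, and lost it on leaving out any other array (adjusted p = 0.0525 without tumor skin 2 to 0.116 without tumor 2). Lesion and skin arrays did not overlap for Egr1, Egr2, Jun and Atf3, all higher and Atf3 by a margin below the second decimal, where 7.49% of all probes were higher without overlap. This comparison uses the same arrays as those by stage.

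Between the lesions, Fosb alone was called, 1 of 11 probes, where 0.447% of all probes were called. It was 2.13-fold lower in tumor than in papilloma (log2 fold change -1.09 ± 0.18, adjusted p = 0.0435), with within-slide differences of -1.44 on slide 1 and -0.93 on slide 2. The call was lost when any array of papilloma, tumor or papilloma skin was left out (adjusted p 0.0739 to 0.271), without the papilloma skin 1 and tumor 1 columns (-0.88, adjusted p = 0.312), with slide as a term (-1.12, adjusted p = 0.296) and in the scanner output (-0.45, adjusted p = 0.417). Jund was lower in tumor by -0.74 ± 0.18 (adjusted p = 0.134) and Fosl1 was higher by 0.68 ± 0.19 (adjusted p = 0.183). Egr1 (0.46 ± 0.21, adjusted p = 0.375), Egr2 (0.53 ± 0.25, adjusted p = 0.378) and Atf3 (-0.39 ± 0.20, adjusted p = 0.413) did not overlap between the lesions and were not called. Without a threshold on p, 18% of all probes were higher and 18.2% lower in tumor than in papilloma without overlap.

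Between tumor skin and papilloma skin, 0 of the 11 probes were called by limma, where 0.26% of all probes were called, and 2 had an unadjusted p under 0.05, as had 22.7% of all probes. These were Fosl1 (0.77 ± 0.21, adjusted p = 0.102) and Atf3 (-0.55 ± 0.22, adjusted p = 0.187). For Egr2 the difference was -0.60 ± 0.27 in the table (adjusted p = 0.232) and 1.14 in the scanner output (adjusted p = 0.185), so that the order of the 2 kinds of skin depended on the source. The test of whether the lesion effect differed between the stages called 0 of the 11 probes and 0.0269% of all probes. At an unadjusted p under 0.05, met by 14.7% of all probes, it picked 3 members, namely Jund, Fosb (-0.87 ± 0.26, adjusted p = 0.22) and Egr2 (1.13 ± 0.37, adjusted p = 0.241), and for Egr2 the scanner output gave -0.87 (adjusted p = 0.29).

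Over the 9 arrays, the levels of Jun, Egr1 and Egr2 ran closely together, with Pearson's r of 0.976 for Jun and Egr1, 0.973 for Egr1 and Egr2 and 0.964 for Jun and Egr2. Fosb and Jund ran together with r = 0.884, and Jund ran against Egr2 with r = -0.881. Fos was closest to Junb (r = 0.827). These values describe 9 arrays of 4 groups, and the differences between groups are part of them. Outside the families, the genes whose levels were most like those of Egr1 were Map4k4, Mcpt2 and Alkbh5 (r = 0.993 to 0.996), those most like Egr2 were Cdv3, Mis12 and Paip2b (r = 0.992 to 0.996), and those most like Jun were Msh3, Thap4 and Lysmd1 (r = 0.990 to 0.992). For Fosb they were Bmp4, Zfp605 and Gli1 (r = 0.944 to 0.968), and for Jund they were Cdk5r1, Cacnb4 and Med1 (r = 0.969 to 0.985). Mean levels of Mcpt2 (6.24), Mis12 (6.33), Zfp605 (6.18) and Cacnb4 (6.32) were close to the minimum of 6.

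Genes that act with these factors were counted from lists of 85 genes in 6 groups, measured by 131 probes. Of these probes, 13.7% were called between papilloma and its skin and 14.5% between tumor and its skin. Over all probes, which include those near background, the shares were 3.18% and 4.21%. In a fit of the 36502 probes well above background on every array of at least 1 group, 1850 and 2467 were called. The lists were chosen with earlier results known, so these shares do not measure enrichment. Of the other EGR factors and their corepressors, Nab2, which binds EGR proteins and is itself induced by them, was higher in both lesions (log2 fold change 1.44 ± 0.21, adjusted p = 0.00701, and 2.56 ± 0.23, adjusted p = 0.00142), and the other 3 of the 4 genes were not called.

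Of 21 further AP-1 and related leucine zipper genes, 3 were called higher and 1 lower in papilloma, and 5 higher and 1 lower in tumor. Transcripts of the small MAF genes Maff (1.58 and 1.32) and Mafk (1.46 and 1.12) rose in both lesions. Ddit3, a stress-induced factor also known as CHOP, rose in papilloma (1.52, adjusted p = 0.027). Crem (1.69), Atf4 (1.18) and Atf5 (1.18) rose in tumor, and Atf7 fell in both (-2.28 and -1.70). The list's median difference was 0.15 in papilloma and 0.28 in tumor, compared with -0.01 and -0.02 over all probes.

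Of 25 other immediate early genes, 5 were called in papilloma and 4 in tumor, all higher, with median differences of 0.40 and 0.50. Ier3 rose by 1.99 in papilloma and 3.12 in tumor, Ctgf by 2.39 and 1.09, and Socs3, an inhibitor of cytokine signalling, by 1.11 and 1.07. Rhob (1.50 and 1.58 by its 2 probes) and Zfp36 (1.03), which promotes the decay of short-lived transcripts, rose in papilloma, and Ptgs2, the inducible cyclooxygenase, rose in tumor (1.75). The remaining 20 and 21 genes were not called, among them Ier2 (0.10 and 0.26).

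The kinases and cofactors upstream of AP-1 and EGR genes were counted next. Of 13 MAP kinase phosphatases and feedback inhibitors, Dusp5 rose in both lesions (1.12 and 1.01) and Spred2 in tumor (1.05). Of 16 MAP kinases and their activators, Mapk14, which encodes p38 alpha, was lower in both lesions by both of its called probes (-1.42 and -1.30 in papilloma, -1.64 and -1.79 in tumor), Mapk13 was lower in tumor (-1.57) and Map2k1 was higher in papilloma (1.09). Of SRF and 5 partners, the ternary complex factor Elk3 rose in both lesions (1.57 and 1.92 by its brighter probe) and the coactivator Mkl1 fell in both (-1.15 and -1.11).

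**Figure D3:**
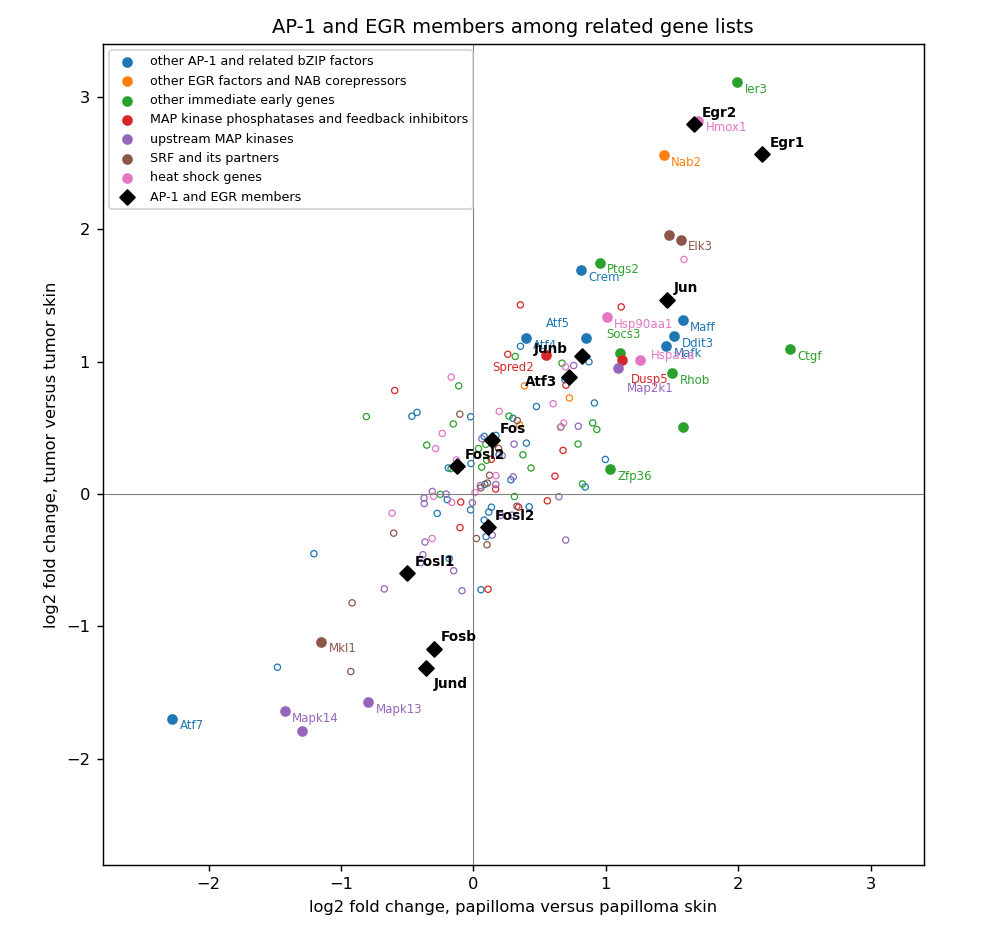
Log2 fold change in papilloma versus papilloma skin (horizontal axis) against that in tumor versus tumor skin (vertical axis) for the AP-1 and EGR probes (black diamonds) and the probes of 7 lists of related genes (colored circles). Filled circles are probes called in either comparison, and a gene with 2 called probes is named once. Egr1, Egr2 and Jun lie in the upper right with Nab2, Elk3 and Ier3, and Fosb and Jund lie below 0 on the vertical axis.

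Genes of stress and of other cell types moved in the same comparisons. Of 12 heat shock and stress genes on the array, Hspa1a (1.26 in papilloma and 1.01 in tumor) and Hsp90aa1 (1.01 and 1.33) rose in both lesions and Hmox1 rose in tumor (2.82), while the list's summed log2 level overlapped between papilloma (16.98 to 17.18) and papilloma skin (16.97 to 17.21) and was higher in tumor (16.84 to 17.28) than in tumor skin (16.56 to 16.58). The part of dissociation stress in the AP-1 and EGR differences was not tested.

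The labels describe a sort to high purity. Of 12 neutrophil markers, Camp, Ltf, Ngp and Mmp8, which encode proteins of neutrophil granules, were lower in both lesions and Ly6g in tumor, and the list's summed level was 20.09 to 20.31 in skin and 19.72 to 19.93 in the lesions. Of 14 keratinocyte markers, 3 were higher in papilloma (Krt6a, Krt6b and Krt16) and 4 in tumor (with Krt14), and the summed level was 13.47 to 14.39 in skin and 14.48 to 16.41 in the lesions. Of 6 smooth muscle markers 5 were higher in papilloma and 0 in tumor, and of 7 endothelial markers 5 and 1 were higher. The smooth muscle list's summed level was 13.33 to 13.46 in papilloma and 11.70 to 12.02 in its skin. It was lower in tumor (11.38 to 11.50) than in tumor skin (11.92 to 12.04). That of the endothelial markers was also lower in tumor (12.49 to 12.68) than in tumor skin (13.18 to 14.03). Between papilloma (12.87 to 13.65) and its skin (12.85 to 13.07) the endothelial sum overlapped.

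Markers of blood and lymphoid cells differed as well. Of 6 red blood cell markers, 4 were lower in papilloma and 5 higher in tumor, with a summed level of 14.84 to 16.14 in papilloma and 19.48 to 20.05 in tumor. Of 7 eosinophil markers 4 were lower in each lesion, with 1 higher in tumor. Of 6 B and plasma cell markers on the array, 1 was lower in papilloma and 2 in tumor, with Igj lower in both (-6.71 and -7.13). Macrophage, dendritic cell, T cell, fibroblast and mast cell lists had at most 2 genes called in either comparison, although some of their summed levels differed. That of the dendritic and Langerhans cell markers was 12.57 to 12.73 in tumor and 14.20 to 15.02 in tumor skin, and overlapped between papilloma (14.01 to 15.36) and its skin (14.70 to 15.55). That of the fibroblast markers was 15.09 to 15.56 in papilloma and 13.61 to 14.67 in its skin, and overlapped between tumor (12.39 to 13.88) and tumor skin (13.00 to 13.16). The macrophage list stood at 15.44 to 15.63 in papilloma and 15.81 to 15.98 in its skin, and at 15.34 to 15.52 in tumor and 15.55 to 15.64 in tumor skin. The T cell list was lower in tumor (12.90 to 12.93) than in tumor skin (13.38 to 13.55). The mast cell list was also lower in tumor, where its lower array stood at 10.91 and both lay below the 11.31 to 11.60 of tumor skin. Both lists overlapped between papilloma and its skin. The part of these cell types in the AP-1 and EGR differences was not tested.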

How the data were processed

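RNA of sorted neutrophils was measured on 9 one-color (Cy3) Agilent mouse arrays. Per the file headers, the scanner output holds fluorescence intensity per spot, background-subtracted and not scaled between arrays. A value table of the authors gives each probe's log2 level on each array. According to the methods, data were quantile normalized (limma) and a chip effect was taken out (ComBat), and whether the table holds both steps is not given in the sources used here. Groups came from the labels. Biological replicates are pools of mice, and n is the number of arrays, which limits the precision.

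The table was fitted with limma (lmFit and eBayes, 5 residual degrees of freedom) over 55681 probes, after a test on simulated data. Probes were called at the thresholds given above. For the scanner output (55155 probes without controls and flagged spots), intensities were log2 transformed, quantile normalized and corrected for slide with a ComBat implementation written for this purpose. limma then treats the slide effect as known, which makes its p-values too small. The same holds for the p-values from the value table if a chip effect was taken out of it, since its main fit had no slide term. Alternatives covered filters, slide terms, other normalizations, the replicate number as a block and leaving out arrays. The genes, lists, motifs and alternatives were chosen with earlier results of these data known. Named from each list of related genes were those called in a lesion comparison, at most 5 in each direction within each comparison. Ier2 was named although it was not called. Gene names and probe coordinates (mm9) are those of the array files. The software was Python 3.11.15 with matplotlib 3.10.9 and pandas 2.3.3, and R 4.3.3 with limma 3.58.1.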

Additional observations from a re-analysis of the deposited data

How the results depend on the processing

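Each count of called probes and each named difference was recomputed under 13 other settings and after leaving out each array in turn. Egr1, Egr2, Jun, Atf3 and Junb were higher in both lesions, and Fosb, Jund and Fosl1 lower in tumor than in tumor skin, under every setting run. The count called in papilloma versus papilloma skin was 1 with the replicate number as a block, 1 with slide as a term, and 0 from the scanner output with quantile normalization alone, with a slide term, with scaling to the 75th percentile, or from the 6 arrays with full slope. In tumor versus tumor skin it was 2 with the replicate block, 1 with slide as a term, 1 from the scanner output with normexp and ComBat, and 0 in the 5 other scanner settings. For lesions versus skin it was 7 without the fold minimum, and 0 in the same 4 scanner settings as for papilloma. In tumor versus papilloma it was 0 with the replicate block, with slide as a term, in every scanner setting and without the papilloma skin 1 and tumor 1 columns. Scanner settings without ComBat called 0 of all probes by limma in every comparison. Leaving out 1 array gave 2 to 3 probes in papilloma, 3 to 5 in tumor (3 without tumor skin 2), 3 to 4 for lesions versus skin and 0 to 1 for tumor versus papilloma. The cause of these changes was not tested.

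Numbers shared by groups were not taken to pair the arrays. The deviations of 12 same-numbered pairs, across stages as well as within them, correlated between -0.959 and 0.534. The 4 pairs above 0.1 were those of a lesion with its own skin (0.162 and 0.534 for papilloma, and 0.393 for both tumor pairs, which mirror each other in groups of 2). The range over all pairs thus does not decide whether a lesion is paired with its own skin. The replicate block joined arrays of both stages that share a number, and a pairing within each stage was not fitted. The replicate block kept Egr1 called in both lesions (adjusted p = 0.0318 and 0.026) and Egr2 in tumor (adjusted p = 0.0289). Not called with the block were Jun in papilloma and tumor (adjusted p = 0.112 and 0.0816), Egr2 in papilloma (0.0863), Fosb and Jund in tumor (0.0632 and 0.0525), and Fosb in tumor versus papilloma (0.319). For lesions versus skin the adjusted p with the block was 0.0573 for Fosb, 0.0631 for Atf3 and 0.14 for Fosl1.

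All reversed differences belonged to values that were not called. With the 75th percentile, which moved the median of all probes to -0.41 in papilloma and -0.15 in tumor, the values against papilloma skin were 1.25 (Fosb), 0.15 (Fosl1), 1.24 (Fosl2, A_55_P1995195) and 0.94 (Jund), those against tumor skin -0.090 (Fos) and -0.55 (Fosl2, A_55_P1995195), Fosb in lesions versus skin 0.16, tumor versus papilloma -0.48 (Egr1) and -0.23 (Egr2), tumor skin versus papilloma skin 0.94 (Atf3) and 0.84 (Egr2), and the stage difference of Egr2 -1.08. The next values are in the order quantile with ComBat, normexp with ComBat, quantile alone and quantile with a slide term. In papilloma they were 0.018, 0.069, 0.084 and 0.011 for Fosb, 0.32, 0.17, 0.34 and 0.29 for Fosl1, -0.24, -0.36, -0.30 and -0.23 for Fosl2 (A_51_P507242), and the first 3 were 0.0076, 0.10 and 0.080 for its other probe, which in tumor gave -0.25, -0.16, -0.35 and -0.23, and -0.28 on the 6 arrays with full slope. Tumor skin versus papilloma skin gave 0.34, 0.29, 0.18 and 0.36 for Atf3 and 1.14, 1.08, 0.92 and 1.19 for Egr2, and the stage difference of Egr2 was -0.87, -0.74, -0.62 and -0.91. Egr1 in tumor versus papilloma was -0.11 with normexp, and Fosl1 in lesions versus skin 0.012 with quantile alone. Fosl2 (A_51_P507242) in papilloma was -0.044 without the papilloma skin 1 and tumor 1 columns, and leaving out 1 array gave it -0.044 to 0.26. Leaving out 1 array gave -0.25 to 0.0053 for the other Fosl2 probe and -0.038 to 0.32 for Fos in papilloma, and -0.51 to 0.0091 for Fosl2 (A_51_P507242) in tumor.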
